A study of Mus musculus with 9 samples.

Results

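The 9 genes described here are the glucocorticoid receptor gene Nr3c1 and 8 genes that respond to glucocorticoids or to cell stress: Fkbp5, Tsc22d3, Dusp1, Klf9, Sgk1, Tat, Ddit4 and Cdkn1a. They were taken by symbol from a table of 56748 genes measured by bulk RNA sequencing in the liver of C57BL/6J mice. The set was chosen by the measured counts of Ddit4, which were high in Indirubin-2 and Indirubin-3. The levels in the indirubin-treated mice are therefore given as a description without a test, and the comparison of colitis with Control is tested.

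Glucocorticoids are steroid hormones of the adrenal cortex that rise with stress and fasting. Their receptor is held in the cytosol by chaperones until the hormone binds, then moves to the nucleus and acts on target genes at glucocorticoid response elements. In the liver it raises genes of amino acid breakdown and glucose production, together with genes that damp the signal itself. Several of these targets also answer to other signals, such as oxygen shortage, DNA damage and growth factors.

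There were 3 groups with 3 libraries in each. Control mice were labelled water and received 200 µL of sterile water by mouth each day. DSS mice went through 3 cycles of 1.8% dextran sulfate sodium (DSS) in the drinking water, an agent that injures the colon and causes colitis, and had the same daily water. Indirubin mice went through these DSS cycles and were given indirubin, a poorly soluble plant-derived bisindole and a main ingredient of indigo naturalis, at 1 g/kg/day in 200 µL of water. All were C57BL/6J mice (C57BL/6 in the sample labels), and the design text of the deposit describes colitis for the mice as a whole, so that the untreated state of the Control mice rests on their label. The labels do not state how each library relates to a mouse beyond its number, and p-values measure the spread between these libraries.

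Library totals lay between 6514863 and 7944684 counts, of which 71.6% to 91.3% fell on the mitochondrial genome, which left 569044 to 2132208 nuclear counts. The mitochondrial share was lowest in Indirubin-2 (71.6%), DSS-3 (72.4%) and Indirubin-3 (77.2%) and lay between 85.8% and 91.3% in the other 6 libraries. Levels are given as normalized CPM, in which TMM factors over all 9 libraries and the library totals put the counts on 1 scale. The hepatocyte genes Alb, Apoa1 and Ttr were abundant in every library, and 10 listed hepatocyte markers summed to 11503 to 19027 normalized CPM in Control, 10058 to 19470 in DSS and 8139 to 10846 in Indirubin. Indirubin-2 and Indirubin-3 stood apart. Summed markers of pancreatic acinar cells reached 1594 normalized CPM in each of them, against 10.3 in Indirubin-1, at most 3.08 in DSS and at most 23.4 in Control. All 14 detected acinar markers of 16 listed were highest in these 2 libraries, and the acinar transcription factor genes Rbpjl and Ptf1a had no count in any library. Neutrophil markers summed to 252 and 92.8 in Indirubin-2 and Indirubin-3, 29.6 in Indirubin-1, 11.5 to 19.8 in DSS and 1.17 to 3.65 in Control, with Cxcr2 at 0 throughout and Ly6g at 6 counts in Indirubin-2 alone. Erythroid markers summed to 668 and 647 in the same 2 libraries and to 110 to 267 in the other 7. Of 8 adipocyte markers, only Fabp4 and Retn were highest in these 2 libraries, and Fabp4 alone gave 42.9 and 48.8 of their sums of 44.5 and 53.4, against sums of 3.01 to 15.2 elsewhere. Plin1 and Cidec were highest in Indirubin-1, and Adipoq and Adrb3 were at 0 throughout. Macrophage and Kupffer cell markers summed to 267 and 255 in Indirubin-2 and Indirubin-3 and to 123 to 205 elsewhere. Of these 11 markers, 4 had their 2 highest values in these 2 libraries. Marco alone gave 31.1 and 72.0 of the 2 sums, whereas Clec4f was lowest of the 9 libraries in Indirubin-3, at 14.2. The remaining lists were lower or more even, with sums of 4.02 to 31.2 for T and B lymphocytes, 26.2 to 78.0 for endothelial cells, 63.4 to 187 for stellate cells and fibroblasts, 3.70 to 13.3 for cholangiocytes and 4.05 to 8.52 for intestinal epithelium. In bulk RNA, fewer cells of a type and less RNA per cell cannot be told apart.

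**Figure D1:**
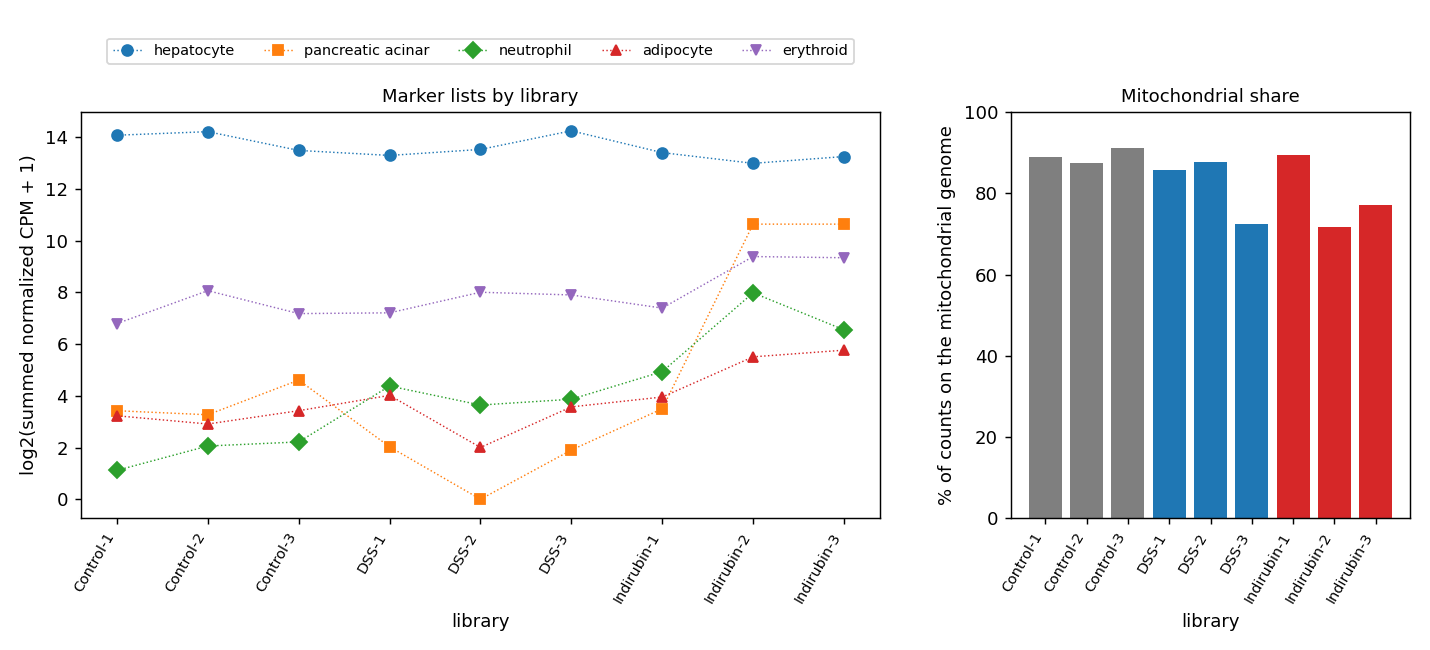
Left, the summed normalized CPM of 5 marker lists in each of the 9 libraries, as log2 of the sum plus 1. Right, bars give the percent of each library's counts on the mitochondrial genome, grey for Control, blue for DSS and red for Indirubin. The acinar sum is 1594 in Indirubin-2 and in Indirubin-3 and at most 23.4 in the other 7 libraries.

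Promoter sequences are shown for 4 members, Ddit4, Fkbp5, Sgk1 and Tsc22d3. Ddit4 and Fkbp5 varied most across the libraries, Sgk1 holds the letters of a glucocorticoid response element, and the Tsc22d3 stretch holds its half-site alone. Each stretch runs 5′ to 3′ from 250 to 151 bases before a RefSeq start site on the GRCm38.p6 build, which differs from the GRCm39 build of the gene positions given further on. Capitals mark AGAACA and its reverse complement TGTTCT, the half-site of a glucocorticoid response element, and ACGTG, the core bound by hypoxia-inducible factors, together with its overlap in CACGTG. None of the 4 stretches overlaps an annotated exon, and those of Fkbp5 and Sgk1 lie inside the span of their own gene. At the 5′ end of the Sgk1 stretch a TGTTCT overlaps CACGTG.
Ddit4, chr10:59951921-59952020, minus strand: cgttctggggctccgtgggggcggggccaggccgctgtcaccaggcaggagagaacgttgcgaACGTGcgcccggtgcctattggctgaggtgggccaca
Fkbp5, chr17:28486300-28486399, minus strand: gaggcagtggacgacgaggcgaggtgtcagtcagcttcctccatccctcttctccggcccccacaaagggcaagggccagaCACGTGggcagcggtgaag
Sgk1, the fifth of 6 starts, chr10:21993640-21993739, plus strand: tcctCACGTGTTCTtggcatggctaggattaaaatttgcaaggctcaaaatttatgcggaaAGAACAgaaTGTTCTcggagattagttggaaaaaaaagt
Tsc22d3, the second of 3 starts, chrX:140600673-140600772, minus strand: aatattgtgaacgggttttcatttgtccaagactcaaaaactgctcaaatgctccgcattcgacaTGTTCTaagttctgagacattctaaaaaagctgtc

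The 250 bases before each start were searched on both strands in 8 members with 16 start sites, Nr3c1 being left out. A complete element of the form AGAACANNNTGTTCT was found before 1 start, the Sgk1 start shown, where it reads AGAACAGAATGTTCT at 189 to 175 bases before the start, and in 3 of 32851 promoters in all (0.00913%). The half-site AGAACA, which this element contains, occurred in 2 of the 8 members, Sgk1 and Tsc22d3, and in 16.1% of all promoters. ACGTG occurred in 6 members (Ddit4, Fkbp5, Sgk1, Tat, Dusp1 and Klf9) and in 16.6% of all promoters. In 3 of these, Fkbp5, Sgk1 and Dusp1, it was part of the E-box CACGTG, found in 6.02% of all promoters. The cyclic AMP response element TGACGTCA occurred in 1 member, Dusp1, at 143 to 136 bases before its start, and in 1.55% of all promoters. TGATGNAA, the element bound by C/EBP and ATF factors, occurred in none of the 8 and in 3.45% of all promoters. The GC box GGGCGG occurred in 6 members and in 32.7% of all promoters. A member with several starts had more than 1 window to hold a match, and a match is a description of letters, not a site in use.

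Nr3c1 (ENSMUSG00000024431, chromosome 18, 39543598 to 39652474 on GRCm39) encodes the receptor. It stood at 17.7, 10.7 and 13.6 normalized CPM in Control-1 to Control-3, at 21.7, 2.84 and 10.5 in DSS-1 to DSS-3, and at 56.2, 7.13 and 12.0 in Indirubin-1 to Indirubin-3. The highest of the 9 values was that of Indirubin-1, with 306 counts, while Indirubin-2 and Indirubin-3 lay among the Control and DSS libraries. Indirubin-1 was 4.81 times the DSS mean, Indirubin-2 was 0.610 times and Indirubin-3 was 1.03 times it. In that same Indirubin-1 library the other 8 members ranged from 0.130 times the DSS mean, for Dusp1, to 2.33 times, for Klf9.

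Among the feedback regulators, Fkbp5 (ENSMUSG00000024222, chromosome 17, 28618068 to 28736501) encodes a co-chaperone that lowers the receptor's affinity for hormone and is itself a receptor target. Its counts were 7, 35 and 12 in Control, 15, 6 and 46 in DSS, and 14, 503 and 469 in Indirubin. In normalized CPM these were 1.36, 6.17 and 2.92 in Control, 1.78, 1.06 and 4.21 in DSS, and 2.57, 41.2 and 40.5 in Indirubin. Indirubin-2 and Indirubin-3 were nearly equal and 17.5 and 17.3 times the DSS mean, whereas Indirubin-1 lay within the range of the other groups at 1.09 times it. The largest of the other 7 values was 6.17, in Control-2.

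Tsc22d3 (ENSMUSG00000031431, chromosome X, 139440277 to 139501408) encodes GILZ, a leucine zipper protein that restrains inflammatory transcription factors. It stood at 6.62, 12.3 and 2.92 normalized CPM in Control, 10.1, 4.08 and 20.3 in DSS, and 7.90, 10.1 and 22.5 in Indirubin. The highest libraries were Indirubin-3 and DSS-3, and all 3 groups overlapped. Indirubin-2, one of the 2 libraries with high Fkbp5, was at 0.878 times the DSS mean.

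Dusp1 (ENSMUSG00000024190, chromosome 17, 26724564 to 26781102) encodes a phosphatase that switches off MAP kinases. Its level was 5.64, 2.82 and 3.65 normalized CPM in Control, 5.33, 0 and 3.11 in DSS, and 0.367, 18.4 and 10.1 in Indirubin. DSS-2 had no count, which allows up to 3 counts at this depth, and Indirubin-1 had 2 counts. Indirubin-2 and Indirubin-3 were the 2 highest libraries, at 6.52 and 3.59 times the DSS mean, and the Indirubin group ran from below the Control range to above it. The span of Dusp1 overlaps Ergic1 on the opposite strand, which had 400 counts over the 9 libraries against 482 for Dusp1, and reads of the overlap cannot be assigned to either gene where counting ignores strand.

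Klf9 (ENSMUSG00000033863, chromosome 19, 23118590 to 23145498) encodes a Krüppel-like transcription factor induced by glucocorticoids and thyroid hormone. It stood at 8.76, 9.51 and 10.5 normalized CPM in Control, 3.08, 2.66 and 9.42 in DSS, and 11.8, 17.6 and 15.4 in Indirubin. All 3 Indirubin libraries lay above all 6 others, and Indirubin-1 was 2.33 times the DSS mean. It was the member that varied least across the 9 libraries, with a coefficient of variation of 50.0% against a median of 64.3% over all genes compared.

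Sgk1 (ENSMUSG00000019970, chromosome 10, 21758083 to 21875802) encodes a kinase that regulates ion transport and is raised by gluco- and mineralocorticoids. Its level was 6.42, 4.76 and 0.731 normalized CPM in Control, 9.72, 2.13 and 4.94 in DSS, and 5.14, 14.7 and 9.33 in Indirubin. Indirubin-2 was highest, DSS-1 stood just above Indirubin-3, and every pair of groups overlapped.

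Tat (ENSMUSG00000001670, chromosome 8, 110717069 to 110726435) encodes tyrosine aminotransferase, the liver enzyme that begins tyrosine breakdown and a classical glucocorticoid-induced gene. It had the most counts of the 9, with 586, 623 and 412 in Control, 576, 404 and 1911 in DSS, and 302, 3368 and 3076 in Indirubin. The normalized CPM were 114, 110 and 100 in Control, 68.3, 71.6 and 175 in DSS, and 55.5, 276 and 266 in Indirubin. Control was narrow, at 108 ± 6.99 (SD, n = 3), DSS-3 stood above the other 2 DSS libraries, and the Indirubin group held both the lowest and the 2 highest libraries of the 9.

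Of the growth arrest genes, Ddit4 (ENSMUSG00000020108, chromosome 10, 59785491 to 59787656) encodes REDD1, a stress-induced protein that inhibits the growth kinase complex mTORC1. It stood at 3.50, 0 and 3.41 normalized CPM in Control, 2.02, 4.08 and 6.12 in DSS, and 3.86, 23.4 and 51.2 in Indirubin. Indirubin-3 and Indirubin-2 were 12.6 and 5.74 times the DSS mean, and Indirubin-1, with 21 counts, was 0.947 times it. Control-2 had no Ddit4 count, which allows up to 3 counts. The group means were 2.30 ± 2.00 in Control, 4.07 ± 2.05 in DSS and 26.1 ± 23.8 in Indirubin (SD, n = 3), so that the spread within the Indirubin group was nearly as large as its mean.

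Cdkn1a (ENSMUSG00000023067, chromosome 17, 29309950 to 29319701) encodes p21, an inhibitor of cyclin-dependent kinases and a target of p53. Its level was 1.75, 2.11 and 2.19 normalized CPM in Control, 3.20, 2.66 and 3.02 in DSS, and 1.29, 7.29 and 19.6 in Indirubin. Control and DSS were narrow and did not overlap, at 2.02 ± 0.235 and 2.96 ± 0.276 (SD, n = 3), from 9 to 12 counts a library in Control and 15 to 33 in DSS. The Indirubin group spanned both, with the lowest library and the 2 highest of the 9.

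**Figure D2:**
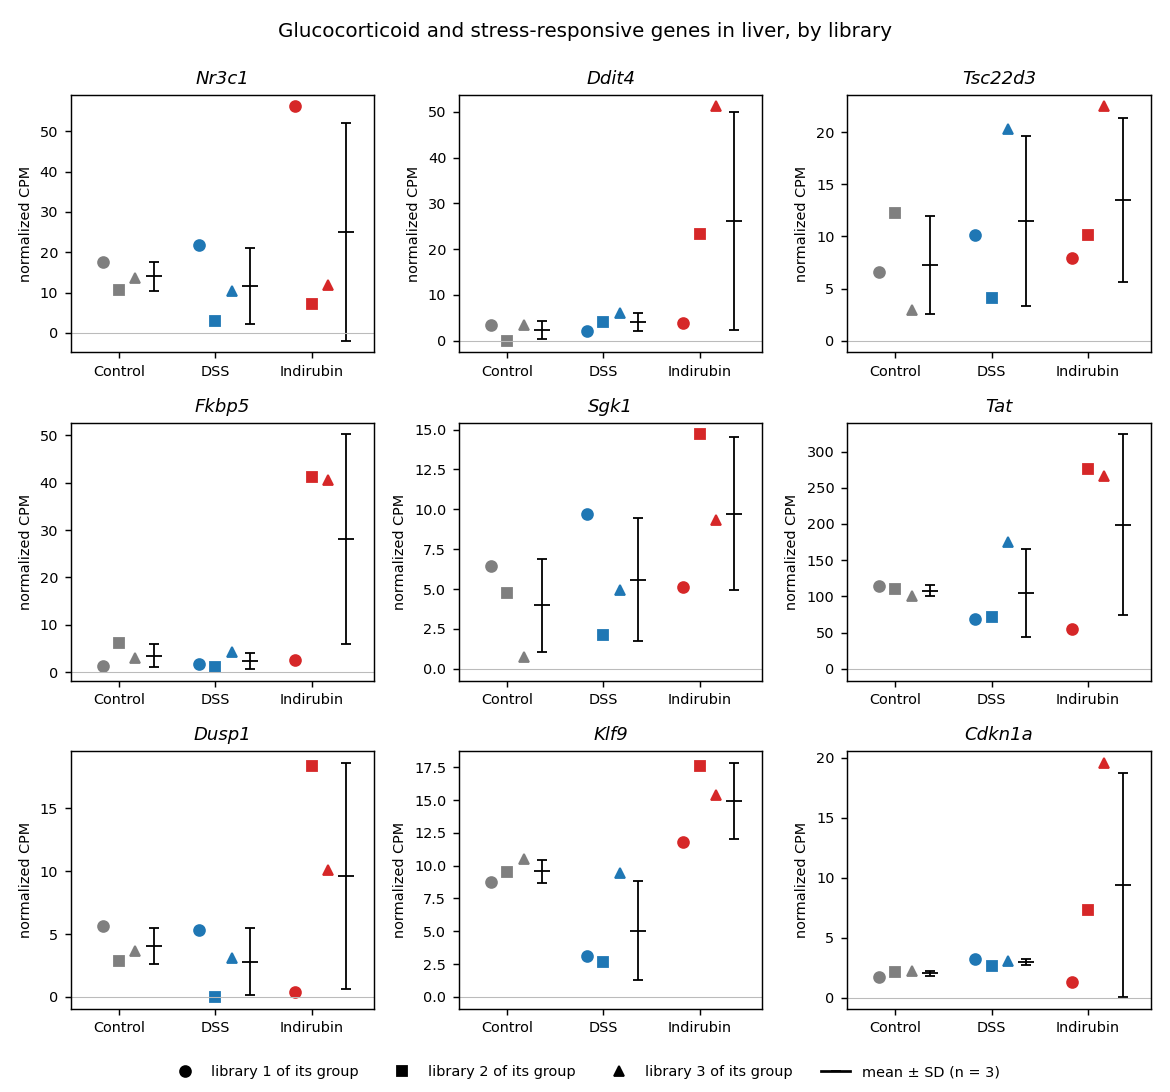
Normalized CPM of each of the 9 genes, with 1 panel per gene and a linear axis of its own. Each symbol is 1 library (circle, square and triangle for libraries 1, 2 and 3 of a group), and the bar beside each group gives the mean ± SD (n = 3). For Ddit4, Fkbp5, Tat, Dusp1, Klf9 and Cdkn1a the 2 highest symbols are Indirubin-2 and Indirubin-3, and for Nr3c1 the highest is Indirubin-1.

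Levels of different genes were compared per length, on the authors' FPKM. Tat was highest, with a median of 40.9 FPKM over the 9 libraries and a range of 22.5 to 106. Tsc22d3 and Ddit4 followed at medians of 2.15 and 2.14, then Klf9 at 1.75, Nr3c1 at 1.48, Dusp1 at 1.08, Sgk1 at 1.02, Cdkn1a at 0.747 and Fkbp5 at 0.302. The ranges of these 8 overlapped one another, so no order among them stood beyond their spread, while the lowest Tat value lay above every value of the others but 1, the 27.5 FPKM of Ddit4 in Indirubin-3. The coefficient of variation of the normalized CPM was largest for Ddit4 (153%), Fkbp5 (149%), Cdkn1a (122%), Dusp1 (104%) and Nr3c1 (92.7%). Sgk1 (66.2%), Tsc22d3 (62.6%), Tat (60.7%) and Klf9 (50.0%) lay near or below the median of all genes.

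The comparison of DSS with Control asked whether colitis alone moved these genes in the liver. In the edgeR quasi-likelihood F test, corrected by Benjamini-Hochberg over all genes, 0 of the 9 members passed an adjusted p of 0.05, where 0.708% of the 7482 genes tested did so. None had an unadjusted p under 0.05 in that test (3.48% of genes had one on the higher side and 4.05% on the lower), and DESeq2's Wald test called 0 of the 5 members to which it gave an adjusted p, the other 4 (Ddit4, Fkbp5, Dusp1 and Cdkn1a) having none. All 9 passed the filter on low counts, and their adjusted p ran from 0.858 to 1.00. Klf9 had the smallest p, with an estimate of -0.90 in log2 units (standard error 0.55, adjusted p = 0.858, edgeR), with DSS-3 inside the Control range. The tightest estimate was that of Tat, at -0.03 with a standard error of 0.35, and the widest was that of Ddit4, at 0.83 with a standard error of 1.05. Cdkn1a was the 1 member whose DSS libraries all lay above the Control libraries, a pattern that 7.91% of the genes tested showed, and no member showed the opposite pattern, seen in 8.21% of genes. Its log2 fold change was 0.59 (standard error 0.88). Of the 9 estimates 4 were above 0, and their median was -0.03 against 0.01 for all genes. When libraries were scaled by size alone, the median of all genes moved to 0.70, and Nr3c1, Fkbp5, Tat and Dusp1 turned from below 0 to above it.

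With indirubin, all 9 log2 fold changes against DSS were above 0, with a median of 1.54 against 0.15 for all 9117 genes tested. Since these libraries chose the set, the values are a description. The largest differences were those of Fkbp5, 3.54 with a standard error of 0.85, and Ddit4, 2.68 with a standard error of 0.75. Dusp1 followed at 1.75 (1.11), Cdkn1a at 1.67 (0.76), Klf9 at 1.54 (0.54) and Nr3c1 at 1.09 (0.78), with the standard error in parentheses. Tat at 0.92 (0.60), Sgk1 at 0.79 (0.60) and Tsc22d3 at 0.23 (0.58) were smallest. Klf9 was the 1 member whose groups did not overlap, where 10.5% of all genes had every Indirubin library above every DSS library and 5.90% had every one below, and with library size alone Klf9 overlapped as well. No gene at all passed an adjusted p of 0.05 in this comparison with edgeR (0% of genes called), 406 genes had an unadjusted p under 0.05 on the higher side and 294 on the lower side, and DESeq2's Wald test called 80 genes.

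Against Control, the same Indirubin libraries gave log2 fold changes of 3.56 for Ddit4 (standard error 0.99), 3.05 for Fkbp5 (0.84) and 2.26 for Cdkn1a (0.80). Sgk1 stood at 1.32 (0.66), Dusp1 at 1.30 (0.86), Tat at 0.92 (0.53), Tsc22d3 at 0.92 (0.56), Nr3c1 at 0.83 (0.64) and Klf9 at 0.67 (0.37). Several of these values moved with 1 library left out. Cdkn1a fell to 1.15 and Tsc22d3 to 0.33 without Indirubin-3, and Dusp1 to 0.45 and Tat to 0.61 without Indirubin-2, where Nr3c1 was at 1.27. Among the Control libraries, leaving out Control-3 gave 0.81 for Sgk1 and 0.51 for Tsc22d3, and leaving out Control-2 gave 1.48 for Tsc22d3. Every Indirubin library lay above every Control library for 2 members, Ddit4 and Klf9, a pattern of 12.7% of the 8059 genes tested, with 9.07% showing the reverse. In that comparison edgeR called 0.236% of all genes at an adjusted p of 0.05, 0.0620% higher and 0.174% lower. For Ddit4 the lowest Indirubin value was 3.86 and the highest Control value 3.50 normalized CPM, a gap of a few counts. Both comparisons share the Indirubin libraries and are not independent.

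**Figure D3:**
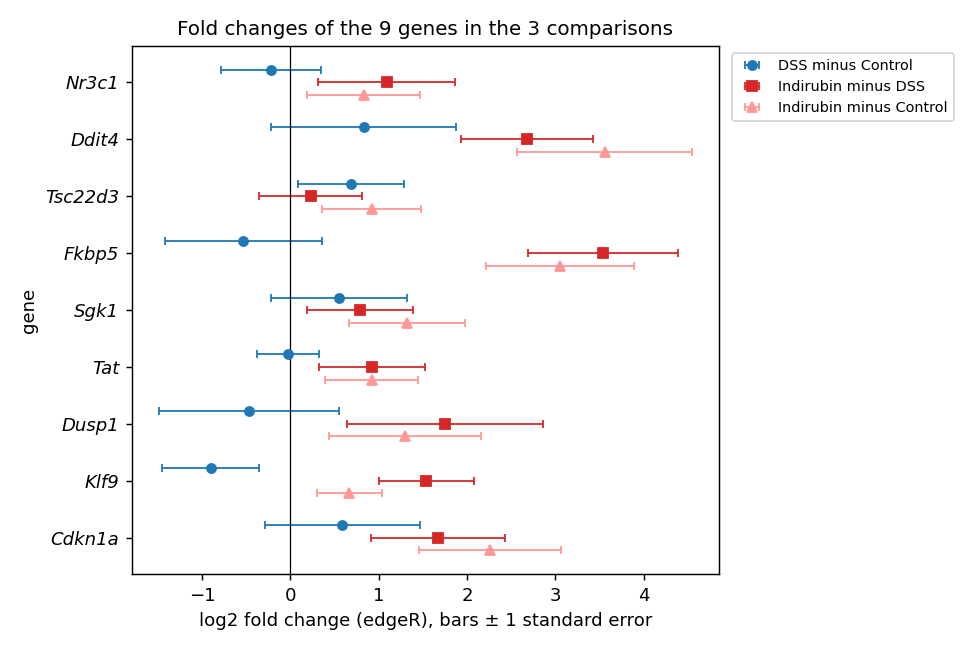
Log2 fold change of each of the 9 genes in the 3 comparisons, as points with bars of ± 1 standard error from the edgeR fit. The blue circles (DSS minus Control) lie on both sides of 0, and the red and pink symbols of the 2 comparisons with Indirubin lie above 0, farthest for Fkbp5 at 3.54 and Ddit4 at 3.56.

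The Indirubin group was divided. For 6 of the 9 members (66.7%), Ddit4, Fkbp5, Tat, Dusp1, Klf9 and Cdkn1a, the 2 highest of the 9 libraries were Indirubin-2 and Indirubin-3, as they were for 712 of 9680 genes compared (7.36%). Since Ddit4 in these 2 libraries chose the set, these shares are a description. With Indirubin-1 left out, these 6 lay above every DSS and Control library, which their order already fixes and which adds no support. Above every DSS library lay 18.8% of genes. Sgk1 joined these 6 above every Control library, making 7 members, where 22.3% of genes did so. Without Indirubin-1, Nr3c1 stood at -0.38 against DSS and at -0.67 against Control on the log2 scale, so its positive difference rested on Indirubin-1. Ddit4 against DSS was 1.75 without Indirubin-3 and 3.10 without DSS-3. Fkbp5 against DSS stayed between 3.13 and 4.26 whichever library was left out. Cdkn1a dropped to 0.56 without Indirubin-3, Dusp1 to 0.89 without Indirubin-2, and Tsc22d3 to -0.36 without Indirubin-3. Indirubin-2 and Indirubin-3 are also the libraries with the high acinar, neutrophil and erythroid sums and, with DSS-3, the low mitochondrial shares given above, and the part of these in the members' levels was not tested. DSS-3, with a mitochondrial share of 72.4% and an acinar sum of 2.74 normalized CPM, had the highest Ddit4, Tsc22d3, Fkbp5, Tat and Klf9 of the 3 DSS libraries, and DSS-1, at 85.8% and 3.08, the highest Nr3c1, Sgk1, Dusp1 and Cdkn1a.

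Beyond the members, 131 genes in 8 lists of the surrounding pathways were examined. The closest list, 24 other glucocorticoid-induced genes of liver, had 20 genes tested between DSS and Control, of which 7 were above 0, with a median log2 fold change of -0.42 against 0.01 for all genes. Called higher were 2 of its genes and called lower 0, where 0.214% and 0.495% of all genes were called. These were Mt1, a metal-binding metallothionein, and Lcn2, an iron-siderophore carrier of acute inflammation, and both are also raised by inflammatory cytokines. Mt1 had 32, 52 and 24 counts in Control and 195, 869 and 1701 in DSS, a log2 fold change of 3.99 (standard error 0.59, adjusted p = 0.00612, edgeR with Benjamini-Hochberg correction). Lcn2 had 28, 0 and 0 counts in Control and 139, 1192 and 2633 in DSS, a log2 fold change of 6.40 (standard error 1.18, adjusted p = 0.0239, same test). The Mt1 call was lost without any single Control library (adjusted p between 0.0547 and 0.0884, edgeR), and the Lcn2 call without Control-2 (0.143), Control-3 (0.180) or DSS-3 (0.0923). The size of the Lcn2 estimate rested on the 28 counts of Control-1, and without that library, with the other Control libraries at 0, the fitted value went to 13.09, which depends on the prior count. At an unadjusted p under 0.05, 5 of the 20 genes tested were lower in DSS, where 4.05% of all genes were, namely G6pc, Tdo2, Angptl4, Hal and Irs2, named here after their values were seen. Angptl4, a lipase inhibitor raised in fasting, had the smallest p of these, with 112, 118 and 66 counts in Control and 41, 30 and 82 in DSS, a log2 difference of -1.69 (standard error 0.39, adjusted p = 0.0798, edgeR). DESeq2's Wald test called Mt1 higher and Angptl4 lower (adjusted p = 0.00340 for Angptl4).

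In the same list, 19 of 22 genes tested were above 0 in Indirubin against DSS, with a median log2 fold change of 1.43 against 0.15 for all genes. The libraries of the group differed here too. Indirubin-1 lay above the DSS mean for 11 of the 22 genes (50.0%), Indirubin-2 for 19 and Indirubin-3 for 18, where 49.6%, 54.9% and 53.2% of all genes tested did so. Indirubin-2 and Indirubin-3 were the 2 highest of the 9 libraries for 12 of the 22 (54.5%), against 7.65% of all genes tested, and the part of the acinar, neutrophil and erythroid sums of these 2 libraries in the list's levels was not tested. Ddit4 in these 2 libraries chose the set, and the list was drawn up with earlier results known. These shares and the counts that follow are therefore a description. Per1, Mt2 and Bcl6 passed the filter only with the Indirubin libraries. None of the 22 passed the adjusted p of 0.05 in edgeR's test, 8 had an unadjusted p under 0.05 on the higher side and 1 on the lower side, where 4.45% and 3.22% of all genes did so, and DESeq2's Wald test called 2, Tdo2 and Anxa1. Anxa1, the glucocorticoid-induced anti-inflammatory annexin, had 17, 4 and 28 counts in DSS and 38, 132 and 132 in Indirubin, a log2 fold change of 2.43 (standard error 0.61, adjusted p = 0.433, edgeR), without overlap. Tdo2, the tryptophan-degrading dioxygenase of liver, was at 1.59 (standard error 0.43, adjusted p = 0.433, edgeR), also without overlap. G6pc, the last enzyme of glucose production, was the 1 gene on the lower side, with 107, 30 and 258 counts in DSS and 45, 33 and 52 in Indirubin, at -1.45 (standard error 0.61, adjusted p = 0.604, edgeR). Tat and G6pc, both classical targets of the receptor, stood on opposite sides of 0. Against Control, 16 of 21 genes tested were above 0, with a median of 1.07 against 0.13 for all genes and 0 called by edgeR, 9 and 2 at an unadjusted p under 0.05 on the higher and lower side (7.45% and 6.38% of all genes), and 3 called by DESeq2's Wald test, Mt1, Lpin1 and G6pc. In edgeR both Mt1 and G6pc passed with all 9 libraries in one fit (adjusted p = 0.0204 and 0.0454) and with at least 10 counts in every library (0.0192 for each). For Mt1 the higher value came from Indirubin-2 and Indirubin-3, at 439 and 712 normalized CPM, while Indirubin-1 was at 4.04, below the 5.85 to 9.16 of Control. For G6pc all 3 Indirubin libraries, at 2.70 to 8.26, lay below the 23.1 to 38.1 of Control.

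**Figure D4:**
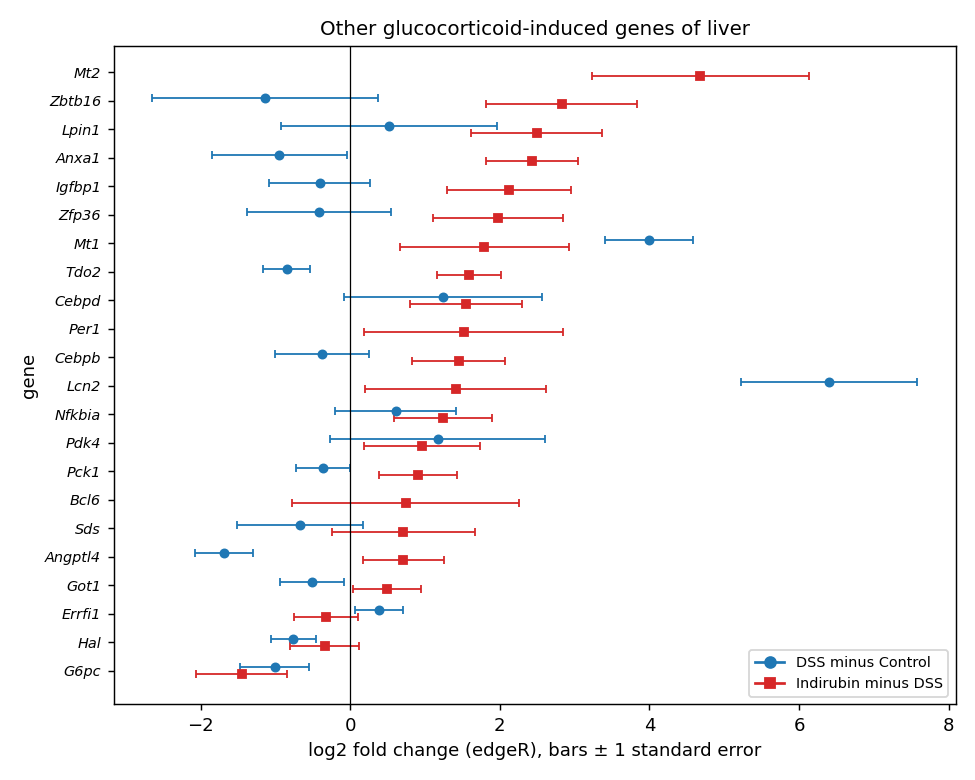
Log2 fold change with ± 1 standard error (edgeR) of the 22 other glucocorticoid-induced genes tested in Indirubin minus DSS (red squares), ordered by that value, and of those also tested in DSS minus Control (blue circles). In Indirubin minus DSS, 19 of the 22 squares lie above 0, and among the circles Mt1 at 3.99 and Lcn2 at 6.40 are farthest to the right.

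Genes of the receptor complex and of steroid supply lay on both sides of 0. Of the 15 genes of this list tested, 3 were above 0 in DSS against Control (median -0.34) and 6 in Indirubin against DSS (median -0.18), with 0 called in either by edgeR or DESeq2, and none of the genes named here had an unadjusted p under 0.05 in either. Serpina6, which encodes the corticosteroid carrier of plasma, had 130, 172 and 56 counts in Control, 90, 100 and 314 in DSS, and 74, 7 and 4 in Indirubin. The low values were those of Indirubin-2 and Indirubin-3, and the log2 fold change against DSS was -2.05 (standard error 1.02, adjusted p = 0.702, edgeR). Without Indirubin-1 the difference was -5.43, a description, since the libraries kept are those that chose the set. Fkbp4, the co-chaperone that opposes Fkbp5 at the receptor, had 130, 165 and 132 counts in Control and 82, 87 and 123 in Indirubin, at -1.39 (standard error 0.39, adjusted p = 0.140, edgeR). Hsd11b1, the enzyme that regenerates active glucocorticoid in liver, was at -1.28 (standard error 0.48, adjusted p = 0.254, edgeR) against Control and is named after its value was seen. Against Control 5 of 16 genes of this list were above 0 (median -0.40), 3 had an unadjusted p under 0.05, all on the lower side, and DESeq2's Wald test called 1, Fkbp4.

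The other lists covered p53 targets, the integrated stress response, the mTORC1 pathway that Ddit4 inhibits, targets of hypoxia-inducible factors, immediate early genes and circadian genes. In edgeR's test at its default filter and with TMM, none of their genes passed an adjusted p of 0.05 in any of the 3 comparisons, and between DSS and Control 1 gene, Herpud1, had an unadjusted p under 0.05 and DESeq2's Wald test called 0. That test gave no adjusted p there to 38 of the 84 genes tested over all 8 lists. In that comparison 9 of 11 p53 targets, 2 of 4 genes of the integrated stress response, 5 of 10 of the mTORC1 pathway, 5 of 10 targets of hypoxia-inducible factors, 4 of 8 immediate early genes and 4 of 6 circadian genes were above 0. In Indirubin against DSS, 9 of 11 genes of the integrated stress response were above 0, with a median log2 fold change of 1.82, and 11 of 12 immediate early genes, with a median of 1.33. The mTORC1 pathway had 9 of 12 above 0 (median 0.56), circadian genes 5 of 8 (median 0.68), p53 targets 9 of 13 (median 0.40) and targets of hypoxia-inducible factors 5 of 10 (median 0.31), against 0.15 for all genes. Of the stress response genes only 4, and of the immediate early genes 8, had passed the filter between DSS and Control. The rest passed only with the Indirubin libraries, which favours values above 0. This also holds for some mTORC1, circadian and p53 genes, so these counts and medians are a description. Of the 4, Atf4 (-0.25) and Herpud1 (-0.19) were below 0 against DSS, and Ddit3 (1.40) and Gdf15 (2.24) above. At an unadjusted p under 0.05 stood 3 of 12 immediate early genes, 2 of 10 hypoxia targets and 1 of 12 mTORC1 genes, all on the higher side, where 4.45% of all genes stood, and DESeq2's Wald test called 1 gene, Hmox1. Indirubin-1 lay above the DSS mean for 6 of the 12 immediate early genes, Indirubin-2 for 10 and Indirubin-3 for 11.

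Ppp1r15a, which restores translation after stress, had 17, 0 and 5 counts in DSS and 13, 63 and 63 in Indirubin, and Atf4, the central factor of that response, was at -0.25 on the log2 scale. Junb, a subunit of the AP-1 factor, had 28, 6 and 28 counts in DSS and 22, 215 and 181 in Indirubin, at 2.41 (standard error 0.65, adjusted p = 0.433, edgeR). Hmox1, the heme-degrading oxygenase, had 63, 39 and 101 counts in DSS and 72, 414 and 398 in Indirubin, at 1.79 (standard error 0.46, adjusted p = 0.433, edgeR). For Ppp1r15a, Junb and Hmox1, Indirubin-2 and Indirubin-3 were well above Indirubin-1, as for Ddit4. Eif4ebp1, a translation inhibitor controlled by mTORC1, had 39, 31 and 64 counts in DSS and 25, 188 and 274 in Indirubin. Sesn1, a p53 target that restrains mTORC1 as Ddit4 does, had 6, 7 and 7 counts in Control, 33, 36 and 22 in DSS, and 10, 70 and 136 in Indirubin. Perp, another p53 target, was at -1.14 against DSS.

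Against Control, the Indirubin libraries had 4 of 9 genes of the integrated stress response, 3 of 9 hypoxia targets, 2 of 12 immediate early genes, 2 of 7 circadian genes, 1 of 12 p53 targets and 1 of 11 mTORC1 genes at an unadjusted p under 0.05, all on the higher side, where 7.45% of all genes stood. The 4 stress response genes were Ppp1r15a, Nupr1, Fgf21 and Psat1, with Control means of 0.518, 0.471, 0.0542 and 0 normalized CPM. They passed the filter only with the Indirubin libraries, where they were high, so their share is a description. Bnip3, a mitophagy receptor under hypoxia-inducible factors, had 24, 44 and 23 counts in Control and 31, 434 and 458 in Indirubin, at 2.20 (standard error 0.61, adjusted p = 0.138, edgeR), while Vegfa, another such target, was at -0.73. Bnip3 passed in edgeR without a filter on low counts (adjusted p = 0.00189) and with library size alone (0.0283). Fosl2, an AP-1 subunit, had 24, 12 and 25 counts in Control and 157, 188 and 139 in Indirubin, at 2.14 (standard error 0.51, adjusted p = 0.0999, edgeR). It passed in edgeR with at least 10 counts in every library (adjusted p = 0.0343), without a filter (0.00607) and with library size alone (0.0183). Unlike Ddit4, Fosl2 was high in all 3 Indirubin libraries. Psat1, an enzyme of serine synthesis and a target of Atf4, had no count in Control and 11, 11 and 26 in Indirubin. DESeq2's Wald test called Bnip3, Fosl2, Psat1 and Junb here.

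The genes whose pattern over the 9 libraries was most like that of Ddit4, by Pearson's r on log2 normalized CPM, were Mafg (r = 0.90, rho = 0.83), Ik (0.90, 0.73), Dstn (0.89, 0.88), Mknk2 (0.89, 0.87) and Arpc1b (0.88, 0.77), out of 9679 nuclear genes. Of these 9679 genes, 43 (0.444%) had an r above 0.8, and the median r was 0.06. The points share the same libraries and Ddit4 had its extremes in Control-2, Indirubin-2 and Indirubin-3, so r describes these 9 libraries only. Dstn, which encodes the actin-severing protein destrin, had 81, 64 and 62 counts in Control, 114, 105 and 167 in DSS, and 120, 457 and 459 in Indirubin. Among the members, Cdkn1a was by r most like Ddit4 (r = 0.74, rank 113), then Tat (0.62, rank 435) and Fkbp5 (0.58, rank 582). Klf9 (0.40, rank 1661), Dusp1 (0.36, rank 1977), Sgk1 (0.33, rank 2186) and Tsc22d3 (0.26, rank 2801) came later, and Nr3c1 had an r of -0.13 (rank 6548). The order differed by rho, with Tat (0.60) before Cdkn1a (0.57), and Klf9 (0.45) and Tsc22d3 (0.40) before Fkbp5 (0.38).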

How the data were processed

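Liver RNA of 3 Control, 3 DSS and 3 Indirubin libraries was extracted with the RNeasy Plus Micro kit, 400 ng per library was sequenced on a DNBSEQ instrument, and reads were aligned to the mouse genome (GRCm39 in the submitters' processing notes). The aligner, annotation and strandedness of counting are not given in the sources used here. The authors deposited whole-number counts per gene, without normalization, and FPKM values made by the authors from these counts, gene length and a library size other than the total count. FPKM was used here only to compare levels between genes. Deposited columns with the authors' log2 fold changes, p-values and adjusted p-values for their own comparisons, and lists of genes by group, were not used.

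Tests on the counts used edgeR 4.0.16 (R 4.3.3), each comparison on its 6 libraries. Genes were first filtered by filterByExpr at its defaults (counts of at least 10, totals of at least 15). TMM factors and then dispersions were estimated from the genes kept. Last came glmQLFit with glmQLFTest (two-sided, Benjamini-Hochberg over all genes tested). Standard errors are the log2 fold change over the square root of F. Printed normalized CPM come from TMM over all 9 libraries, whereas each fold change uses the scaling of its 6. With 3 against 3, an exact permutation test of a single gene cannot go below a two-sided p of 0.10, and none was run. Libraries were compared for identical columns (0 pairs). The scripts were first tested on simulated data.

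The members and all gene and marker lists were chosen with earlier results of these data known. Genes named are the 9 members, for each list the genes called or else that with the smallest p each way, the 5 genes most like Ddit4, and a few more named for their values. One result of these lists is not reported here. Alternatives were DESeq2 size factors, library size alone, DESeq2 1.42.0 with its Wald test (which gave no adjusted p to some genes of low counts), keeping every gene, at least 10 counts in every library, no mitochondrial genes, a joint fit of all 9 libraries, a block for the replicate number, and each library left out. A 0 in a library allows up to 3 counts, counting error only. Promoters came from RefSeq (GRCm38.p6). Software was data.table (version 1.17.8), Python 3.11.15 and matplotlib 3.10.9.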

Additional observations from a re-analysis of the deposited data

How the results depend on the processing

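Depth differed between members. In the Control and DSS libraries Ddit4 had 0 to 67 counts, Fkbp5 6 to 46, Dusp1 0 to 45 and Cdkn1a 9 to 33, with standard errors of 0.88 to 1.05 for the log2 fold change between these groups, whereas Tat had 404 to 1911 counts and a standard error of 0.35. The members kept their direction in 350 of 365 alternative values and turned in 15, and no alternative that gave an adjusted p brought a member past the threshold in DSS against Control. The cause of the changes below was not tested.

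The number of genes called in DSS against Control was 53, and 19 with library size alone, 143 with DESeq2's Wald test, 125 without a filter, 84 with at least 10 counts in every library, 11 with all 9 libraries in one fit and 12 to 64 with a library left out. In Indirubin against DSS it was 0, and 2, 80, 156, 2 and 4 under the same settings in that order, and 0 to 134 with a library left out, the 134 without Indirubin-1. In Indirubin against Control it was 19, and 266, 316, 379, 72 and 56 in that order, and 1 to 465 with a library left out, the 465 without Indirubin-1. With the replicate number as a block the counts were 30, 3 and 49. Libraries of the same number did not deviate together over all genes compared (correlations of -0.02 to 0.02). These correlations gave no sign of a pairing by number, but a pairing that touches few genes would not show in them.

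Members above every library of the other group numbered 1 to 2 in DSS against Control with a library left out, 1 to 6 in Indirubin against DSS (0 with library size alone) and 2 to 7 in Indirubin against Control. Library size alone moved the median log2 fold change of all genes from 0.01 to 0.70, 0.15 to 0.43 and 0.13 to 1.10 in the 3 comparisons, and the share of higher genes among those with an unadjusted p under 0.05 from 46.2% to 92.2%, 58.0% to 79.8% and 53.9% to 95.2%. Under it Nr3c1 (0.51), Fkbp5 (0.29), Tat (0.78) and Dusp1 (0.30) turned in DSS against Control, Atf4 (0.17) and Dusp6 (0.08) in Indirubin against DSS, and Perp (0.22), Atf4 (0.90), Akt1s1 (0.31), Vegfa (0.08) and Dusp6 (0.23) in Indirubin against Control. With a library left out, DSS against Control ran from -0.56 to 0.19 for Tat, -1.19 to 0.12 for Fkbp5, -0.15 to 1.02 for Sgk1, -1.05 to 0.20 for Nr3c1 and -1.33 to 0.06 for Dusp1. For Ddit4 it ran from 0.23 to 1.29. Indirubin against DSS ran from -0.38 to 1.80 for Nr3c1, -0.36 to 0.91 for Tsc22d3, -0.67 to 0.02 for Dusp6 and -0.74 to 0.07 for Deptor. Indirubin against Control ran from -0.67 to 1.27 for Nr3c1, -0.68 to 0.55 for Atf4 and -1.99 to 0.15 for Cry1. The Mt1 call was also lost with all 9 libraries in one fit (adjusted p = 0.182, edgeR), and the Lcn2 call with library size alone (0.0758), the Wald test (0.127), one fit (0.107) and the block (0.0946). Calls were also gained in edgeR. In Indirubin against Control these were G6pc (without a filter 2.97e-04, block 0.0203) and Mt1 (without a filter 3.07e-22, library size alone 0.00689), beside their calls in the report, and, with library size alone, Eif4ebp1 (0.0391), Sesn1 (0.0410) and Psat1 (0.0478). Angptl4 was gained in DSS against Control under the minimum of 10 counts a library (0.0236), and Serpina6 in Indirubin against DSS without a filter (0.0278). Without Indirubin-1, 8 of the named list genes' differences passed, which is no test, since that leaves the libraries that chose the set.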
